A study of Mus musculus with 26 samples.

Results

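The genes described are 8 enzymes that feed or run one-carbon metabolism: Phgdh, Psat1, Psph, Shmt1, Shmt2, Mthfd1, Mthfd2 and Chdh. They were taken by name, and every probe set of the array whose single gene symbol is one of these names counts as a member: 21 of 22626 probe sets, for 8 of 12393 named genes. The names were chosen with earlier results of these data known. Counts of members set beside the share of all probe sets are therefore descriptive and no test of the set. Phgdh, Shmt1 and Shmt2 have 4 probe sets each, Mthfd1 has 3, Psat1 and Mthfd2 have 2, and Psph and Chdh have 1. Another 2 probe sets that carry the symbol Phgdh together with a second symbol were left out.

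S49 cells are a mouse T-lymphoma line. Their Kin- derivative has no active protein kinase A (PKA), through which cyclic AMP (cAMP) mostly acts. Both lines were left untreated (0 h) or given 100 µM 8-CPT-cAMP, a cAMP analog that enters cells, for 2, 6 or 24 h. Messenger RNA was measured on 26 oligonucleotide arrays in 8 groups: 4 untreated arrays of the wild type (WT), 4 of Kin-, and 3 arrays of either line at each later time. The 0 h arrays serve as the control for every time, so the comparisons with 0 h share them. The labels do not say whether arrays of one group stem from different cultures, so the spread that the p-values rest on may be technical. Fewer cells and less RNA per cell of a transcript cannot be told apart in such bulk RNA.

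Levels are the square root of the deposited score, read as a log2 intensity. The scale of the deposited scores is not stated, so a change of 1 log2 unit may not be an exact doubling. Over all values the level ran from 0.612 to 16.355 with a median of 5.467. Each gene is given by the brightest of its probe sets, and a change was called when its adjusted p in limma, over all 22626 probe sets, was under 0.05. The level of one gene is not compared with that of another, since probe sets differ in brightness. Arrays numbered 1 to 14 and arrays numbered 16 to 47 stood apart from each other after group means were removed, every group held arrays of both sets, and each treated group held a single array of the first. Of the markers of the T lineage 5 of 6 were measured, with median levels from 9.19 for Cd247 to 12.69 for Thy1. The measured markers of B cells, myeloid, erythroid, fibroblast and epithelial cells had median levels from 3.24 to 5.69.

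One-carbon metabolism moves single-carbon units, carried by folate, into purines, thymidylate and methionine. Most of these units come from serine. Phgdh, Psat1 and Psph make serine from a glycolytic intermediate in 3 successive steps. Shmt1 in the cytosol and Shmt2 in mitochondria split serine into glycine and a folate-bound carbon. Mthfd1 in the cytosol and Mthfd2 in mitochondria interconvert the folate-bound forms, and Mthfd2 in particular is known to be high in dividing and transformed lymphocytes. Chdh, choline dehydrogenase, stands apart: it oxidizes choline in mitochondria towards betaine, whose methyl groups can enter the same pool.

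Promoters of 4 of these genes are shown because their brightest probe sets were called lower over different intervals. These were by 2 h for Chdh, both later intervals for Psph, and 6 to 24 h for Psat1 and Mthfd2. The intervals are not firm: a second Psat1 probe set was called lower between 2 and 6 h too (adjusted p = 0.0304). The Psph call between 2 and 6 h was lost without array 3, 17, 18 or 37. Within arrays 1 to 14 alone the larger fall of Psat1 and Mthfd2 was between 2 and 6 h. Each promoter shown is 300 bases, 250 before and 50 after a RefSeq gene start in GRCm38.p6, read in the direction of the gene. Capitals mark TGACG (the core of the cAMP response element) and CCAAT (the CCAAT box), on either strand; the Chdh window holds neither. For Psat1 and Chdh, which have more than 1 start in the table, the start farthest upstream is shown.
Chdh promoter, chr14:30008750-30009049, plus strand: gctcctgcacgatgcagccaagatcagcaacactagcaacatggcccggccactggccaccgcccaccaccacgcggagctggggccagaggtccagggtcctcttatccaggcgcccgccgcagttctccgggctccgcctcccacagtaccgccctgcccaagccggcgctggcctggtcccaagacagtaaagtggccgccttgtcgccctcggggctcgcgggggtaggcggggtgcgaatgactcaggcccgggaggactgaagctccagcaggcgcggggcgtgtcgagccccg
Psph promoter, chr5:129787204-129787503, minus strand: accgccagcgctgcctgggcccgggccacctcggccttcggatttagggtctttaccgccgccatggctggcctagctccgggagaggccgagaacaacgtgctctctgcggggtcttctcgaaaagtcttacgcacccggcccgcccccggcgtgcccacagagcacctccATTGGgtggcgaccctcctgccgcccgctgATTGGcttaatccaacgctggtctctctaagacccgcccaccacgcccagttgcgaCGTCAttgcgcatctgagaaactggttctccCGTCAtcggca
Psat1 promoter, chr19:15925010-15925309, minus strand: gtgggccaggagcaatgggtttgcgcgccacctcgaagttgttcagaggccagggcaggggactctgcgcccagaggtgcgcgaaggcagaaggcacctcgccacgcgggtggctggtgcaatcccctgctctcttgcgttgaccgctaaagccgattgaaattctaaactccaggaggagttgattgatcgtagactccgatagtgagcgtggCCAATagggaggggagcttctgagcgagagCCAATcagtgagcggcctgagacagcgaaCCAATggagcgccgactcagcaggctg
Mthfd2 promoter, chr6:83317555-83317854, minus strand: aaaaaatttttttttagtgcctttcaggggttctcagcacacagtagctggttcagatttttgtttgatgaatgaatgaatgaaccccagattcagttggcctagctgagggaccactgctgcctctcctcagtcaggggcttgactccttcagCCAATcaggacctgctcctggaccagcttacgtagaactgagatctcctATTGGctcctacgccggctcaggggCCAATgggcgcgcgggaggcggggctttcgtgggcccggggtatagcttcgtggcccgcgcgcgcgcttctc
The promoter table matched 8 of 8 members, with 11 starts. The full cAMP response element TGACGTCA, the E-box CACGTG and the amino acid response element TGATGNAA were in 0 of the 11 windows; they were in 1.79%, 7.15% and 3.97% of 32851 windows of all genes, on both strands. TGACG, which is part of TGACGTCA, was in 2 of 11, those of Psph and Shmt1, against 20.8% of all windows. CCAAT was in the windows of 6 of 8 genes, or 6 of 11 windows, against 37.4% of all windows. Psat1 and Mthfd2 had 3 matches each, Phgdh and Psph 2, Shmt1 and Mthfd1 1, and Shmt2 and Chdh none. The search for CCAAT and for the GC box GGGCGG, which was in 5 of 11 windows and 35.7% of all, was added after the sequences had been read. A match describes these letters only, and no binding was measured here.

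The comparison of 2 h with 0 h in WT asked which of the enzymes responded first. Chdh alone was called lower, 1 of 8 genes, where 7.25% of all probe sets were called lower. Its untreated levels were 10.11, 10.11, 9.89 and 10.06 on arrays 1, 13, 16 and 36, and its levels at 2 h were 6.16, 6.05 and 6.65 on arrays 2, 17 and 37. The groups were far apart and did not overlap, and the share of all probe sets without overlap at 2 h is not given here. Chdh fell by 3.75 ± 0.21 log2 units (SE; adjusted p = 7.3e-11). It is measured by a single probe set, of a kind (suffix s) whose probes can match more than 1 transcript.

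The other 7 genes had not passed at 2 h, with changes of their brightest probe sets between 0.03 for Phgdh and -0.76 for Shmt1. The median change over the 8 genes was -0.21, beside 0.05 over all probe sets. Shmt1, the cytosolic serine hydroxymethyltransferase, was the exception among its probe sets. The brightest one had a change of -0.76 ± 0.49 (adjusted p = 0.361). Among the others 1425178_s_at fell by 1.44 ± 0.27 (adjusted p = 0.000741) and 1425177_at fell by 0.82 ± 0.13 (adjusted p = 0.000135). With the mean over all its probe sets Shmt1 was called lower at 2 h as well (adjusted p = 0.0367), which makes 2 of 8 genes.

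The comparison of 6 h with 0 h in WT asked how many had fallen by then. All 8 genes were called lower at 6 h, and so were 21 of 21 probe sets, where 10.1% of all probe sets were called lower. The median change of the 8 genes was -1.11, beside -0.03 over all probe sets. In each of the 8 genes every array at 6 h was below every untreated array; 22% of all probe sets showed this too.

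Of the 7 genes that had not passed at 2 h, Shmt1, Shmt2 and Mthfd1 had changes beyond 1 log2 unit at 6 h. Shmt1 had untreated levels of 10.37, 10.51, 9.88 and 9.83, and at 2 h levels of 10.03, 9.12 and 8.99. At 6 h it stood at 8.38, 6.12 and 7.01 on arrays 3, 18 and 38, and so fell by 2.97 ± 0.49 (adjusted p = 0.00011). The array of the first set was the highest of these 3 by more than 1 log2 unit. Shmt2, its mitochondrial counterpart, went from 12.25, 12.28, 12.50 and 12.59 when untreated to 10.69, 10.20 and 10.70 at 6 h. It fell by 1.87 ± 0.22 (adjusted p = 1.96e-06), with the 3 arrays close together. Mthfd1, the cytosolic trifunctional folate enzyme, went from 11.30, 11.13, 11.00 and 11.18 to 10.10, 9.58 and 9.67. It fell by 1.37 ± 0.22 (adjusted p = 7.87e-05).

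Mthfd2 and the serine synthesis enzymes had smaller falls at 6 h. Mthfd2 went from 11.55, 11.42, 11.70 and 11.88 to 10.56, 10.86 and 11.03, and fell by 0.82 ± 0.22 (adjusted p = 0.00958). Phgdh, the first enzyme of serine synthesis, went from 12.68, 12.65, 12.42 and 12.69 to 12.09, 11.41 and 11.76, and fell by 0.86 ± 0.27 (adjusted p = 0.0249). Psat1, the transaminase of the second step, went from 12.49, 12.43, 12.74 and 12.80 to 11.85, 11.64 and 11.94, and fell by 0.81 ± 0.23 (adjusted p = 0.0158). Psph, the phosphatase of the last step, went from 11.81, 12.01, 12.08 and 12.21 to 11.37, 11.27 and 11.71, and fell by 0.57 ± 0.12 (adjusted p = 0.00121). These groups did not overlap, but in Psph the gap between the highest array at 6 h and the lowest untreated one was narrow. The calls of Phgdh, Psat1 and Mthfd2 were lost when single arrays were left out: without array 18 the adjusted p was 0.153 for Phgdh and 0.0802 for Psat1, and without array 3 it was 0.0567 for Mthfd2. The Phgdh call was also lost without array 1, 13, 36 or 38 (adjusted p = 0.0545, 0.0524, 0.053 and 0.0681), so on leaving out 5 of the 7 arrays.

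Chdh was still low at 6 h, at 7.23, 6.83 and 7.66, and fell by 2.80 ± 0.21 from its untreated level (adjusted p = 4.17e-09). Every one of these arrays was above every array at 2 h, and the share of all probe sets with this order is not given here.

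**Figure D1:**
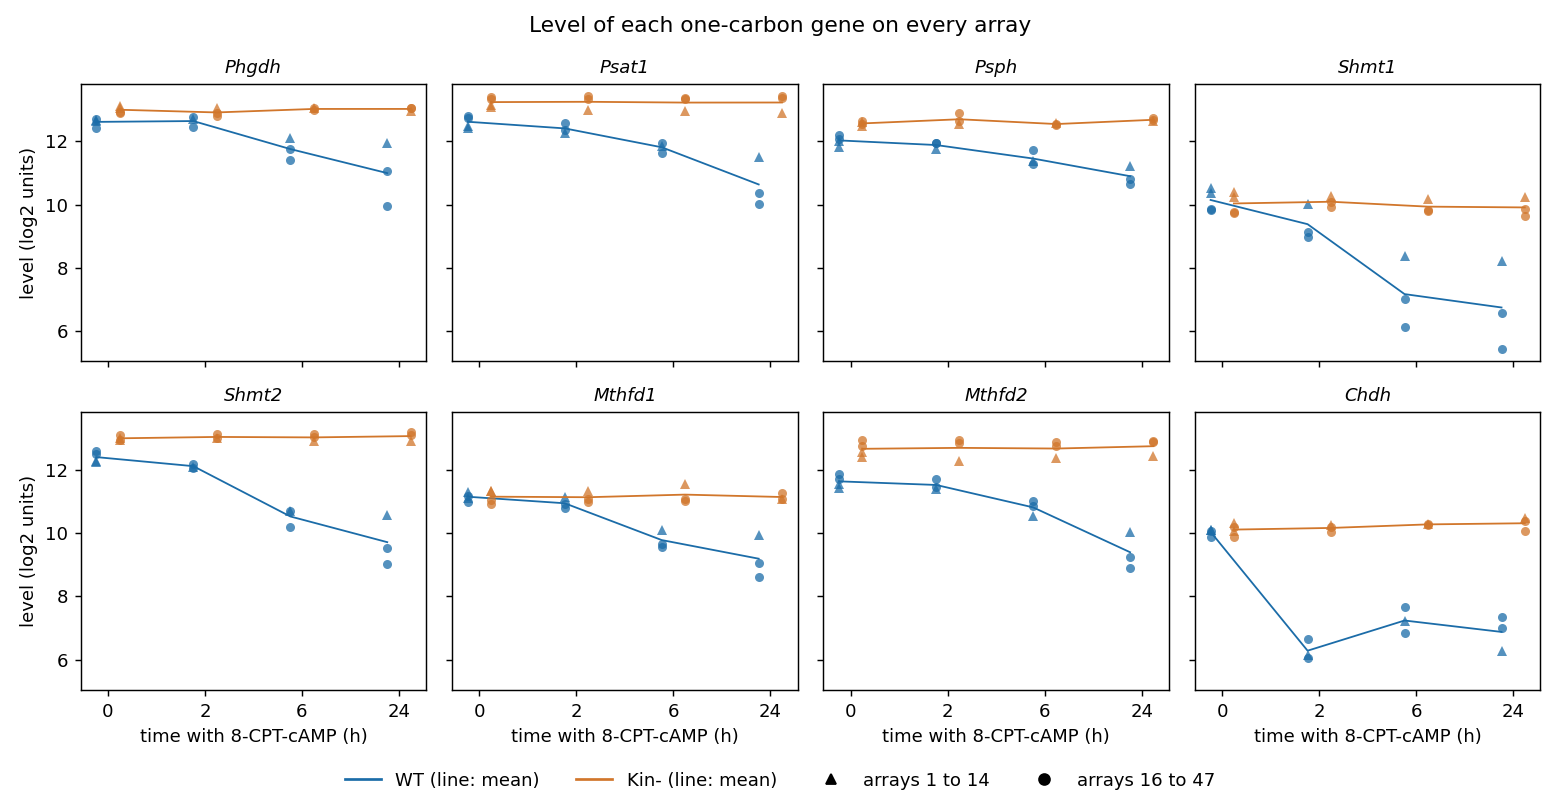
Level of the brightest probe set of each gene (vertical axis, log2 units) on every array against time with 8-CPT-cAMP (horizontal axis, in hours, evenly spaced by group), WT in blue and Kin- in orange, with a line through the group means; triangles are arrays 1 to 14 and circles arrays 16 to 47. In WT Chdh was at its lowest at 2 h and the other 7 genes went down at 6 and 24 h, while in Kin- no change was called.

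The comparison of 24 h with 0 h in WT asked where the genes stood at the last time. All 8 genes were again called lower, where 15.6% of all probe sets were, and every array at 24 h was below every untreated array in each of them, as in 16% of all probe sets. Of the 21 probe sets 20 fell by at least 1 log2 unit; 5.72% of all probe sets did. The median change of the 8 genes was -2.11, beside -0.01 over all probe sets.

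At 24 h Shmt1 stood at 8.22, 5.45 and 6.58 on arrays 4, 19 and 39, and fell by 3.40 ± 0.49 (adjusted p = 8.79e-06). Chdh stood at 6.27, 7.00 and 7.36, and fell by 3.16 ± 0.21 (adjusted p = 2.17e-10). Shmt2 stood at 10.58, 9.02 and 9.55, and fell by 2.69 ± 0.22 (adjusted p = 4.64e-09). In Shmt1 and Shmt2 array 4 was the highest of the 3, and in Chdh it was the lowest. Mthfd2 stood at 10.04, 8.91 and 9.25, and fell by 2.24 ± 0.22 (adjusted p = 6.63e-08). Mthfd1 stood at 9.93, 8.60 and 9.05, and fell by 1.96 ± 0.22 (adjusted p = 3.22e-07). Both genes had their lowest array in array 19. Psat1 stood at 11.51, 10.03 and 10.37, and fell by 1.98 ± 0.23 (adjusted p = 6.93e-07). Phgdh stood at 11.95, 9.96 and 11.07, and fell by 1.62 ± 0.27 (adjusted p = 4.77e-05). Psph stood at 11.22, 10.66 and 10.80, and fell by 1.13 ± 0.12 (adjusted p = 1.67e-07). Of the serine synthesis genes Phgdh was the most scattered at 24 h, with an SD of 1.00 against 0.29 for Psph.

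The arrays at 24 h kept an order across genes. Array 4 was the highest of the 3 in 7 of 8 genes and array 19 the lowest in 7 of 8, with Chdh the exception in both. Among the 3519 probe sets called lower at 24 h, array 4 was the highest in 70.4% and array 19 the lowest in 60.6%, so the order is not particular to these enzymes. Array 4 is the only array of the first set at 24 h. Within arrays 1 to 14 the difference of 24 h from 0 h was -0.72 for Phgdh, -0.95 for Psat1, -0.69 for Psph, -2.22 for Shmt1, -1.68 for Shmt2, -1.28 for Mthfd1, -1.45 for Mthfd2 and -3.83 for Chdh. Within arrays 16 to 47 it was -2.04, -2.57, -1.41, -3.84, -3.26, -2.26, -2.71 and -2.79 in the same order of genes. The direction was therefore the same in either set, and the size was larger in the second set for all but Chdh. With the array set as a term in the fit, 8 of 8 genes were called lower at 24 h; in arrays 1 to 14 alone 7 were, without Psph (adjusted p = 0.0622). In WT the summed level of the 5 T-lineage markers went from between 56.1 and 57.9 to between 59.1 and 60.4 at 24 h, and that of the 4 myeloid markers from between 17.2 and 17.6 to between 18.1 and 20.3. Of the T-lineage markers 4 were called higher and 1 lower, and of the myeloid markers 1 was called higher and the other 3 were not called. Their part in the results was not tested.

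Against 0 h in WT, probe sets of one gene differed in size but not in direction at 6 and 24 h. At 24 h the 4 probe sets of Shmt1 had changes from -0.74 to -3.40. Its probe set 1425177_at went from 9.39 ± 0.15 (SD, n = 4) when untreated to 8.56 ± 0.22 (SD, n = 3) at 2 h, 8.31 ± 0.11 at 6 h and 8.65 ± 0.12 at 24 h, so it was lower from 2 h on and had the smallest change of the 4 at 24 h. The 4 probe sets of Phgdh fell by between 1.19 and 1.99 at 24 h, and those of Shmt2 by between 1.71 and 2.80. The 3 of Mthfd1 fell by between 1.96 and 2.47, the 2 of Mthfd2 by 2.24 and 2.31, and the 2 of Psat1 by 1.98 each. All 4 probe sets of Phgdh, 3 of 4 of Shmt2 and 1 of 3 of Mthfd1 carry the suffix x, used for probes that can cross-hybridize.

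Successive times were compared to place the step of each gene. Between 2 and 6 h 5 of 8 genes were called lower and 1 higher, where 6.66% and 6.37% of all probe sets were. Shmt1 fell by 2.21 ± 0.52 in this interval (adjusted p = 0.00683). Its probe sets disagreed: 1425178_s_at fell by 0.94 (adjusted p = 0.0362) after it fell by 1.44 up to 2 h, and 1425177_at had a change of -0.25 (adjusted p = 0.241), so for 2 of its 4 probe sets the change up to 2 h was the larger one. Shmt2 fell by 1.59 ± 0.23 (adjusted p = 0.000108) and Mthfd1 fell by 1.16 ± 0.23 (adjusted p = 0.00188). Phgdh fell by 0.88 (adjusted p = 0.0446) and Psph by 0.43 (adjusted p = 0.0308). Chdh rose by 0.95 ± 0.22 (adjusted p = 0.00587), the only rise among the 8. Psat1 and Mthfd2 had differences of -0.60 (adjusted p = 0.125) and -0.71 (adjusted p = 0.0521). The second probe set of Psat1, 1454607_s_at, was called lower (-0.84, adjusted p = 0.0304). The count of 5 lower moved both ways. On leaving out any 1 array it was from 2 to 4: 2 without array 18, 3 without array 17 and 3 without array 37. The call of Phgdh was lost without array 2, 17, 18, 37 or 38 (adjusted p from 0.0626 to 0.17). That of Psph was lost without array 3, 17, 18 or 37 (adjusted p from 0.0939 to 0.142), and that of Shmt1 without array 18 (adjusted p = 0.0517). Phgdh and Psph were also lost with log2 of the deposited value and with quantile normalization. With only the groups at 2 and 6 h in the limma fit, the rise of Chdh was not called (adjusted p = 0.0921). Shmt1 (adjusted p = 0.0981), Phgdh (adjusted p = 0.0546) and Psph (adjusted p = 0.137) lost their calls there too, and Psat1 passed (adjusted p = 0.0472). With array weights, or in arrays 16 to 47 alone, Psat1 and Mthfd2 passed too and the count was 7.

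Between 6 and 24 h 4 of 8 genes were called lower and 0 higher, where 9.16% and 8.64% of all probe sets were. Mthfd2 fell by 1.42 ± 0.24 (adjusted p = 0.000147) and Psat1 by 1.17 ± 0.25 (adjusted p = 0.00162). Shmt2 fell by 0.81 ± 0.23 (adjusted p = 0.0173) and Psph by 0.56 ± 0.13 (adjusted p = 0.00316). In Mthfd2, Psat1 and Psph the times did not overlap, and the share of all probe sets without overlap is not given here. With only the groups at 6 and 24 h in the limma fit, Mthfd2 alone kept its call. The adjusted p was then 0.146 for Psat1, 0.153 for Psph and 0.355 for Shmt2. Arrays 1 to 14 hold a single array of each time. There the differences were -0.52 for Mthfd2, -0.34 for Psat1, -0.15 for Psph and -0.10 for Shmt2. In that set Mthfd2 had changes from 0 h of -0.10, -0.93 and -1.45 at 2, 6 and 24 h. Those of Psat1 were -0.19, -0.62 and -0.95, so in that set both had their larger fall between 2 and 6 h. In the fit to all arrays Phgdh had a difference of -0.76 (adjusted p = 0.0733), Mthfd1 of -0.59 (adjusted p = 0.0923), Shmt1 of -0.42 (adjusted p = 0.767) and Chdh of -0.36 (adjusted p = 0.349). Those are the brightest probe sets. Of Mthfd1, 1415916_a_at (-0.94, adjusted p = 0.00264) and 1415917_at (-0.97, adjusted p = 0.000857) were called lower, so 2 of its 3. For Phgdh, 1426658_x_at was called lower (-1.09, adjusted p = 0.00499) and the others were not called. In Shmt1 the direction differed: 1425177_at (0.34, adjusted p = 0.122) and 1425178_s_at (0.35, adjusted p = 0.558) had positive differences that were not called. Without array 4 the difference of Shmt2 was -1.25, and Phgdh (-1.24, adjusted p = 0.000244) and Mthfd1 (-0.96, adjusted p = 0.000722) passed; without array 19 that of Shmt2 was -0.46 (adjusted p = 0.155). The Shmt2 call was also lost without array 3, 38 or 39 (adjusted p = 0.0664, 0.0741 and 0.0761), so on leaving out 4 of the 6 arrays. With runs of consecutive arrays as a replicate block, Phgdh (adjusted p = 0.0166) and Mthfd1 (adjusted p = 0.0171) were called as well, which makes 6 of 8. Mthfd2 was called between 2 and 6 h under the same block (adjusted p = 0.0127).

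**Figure D2:**
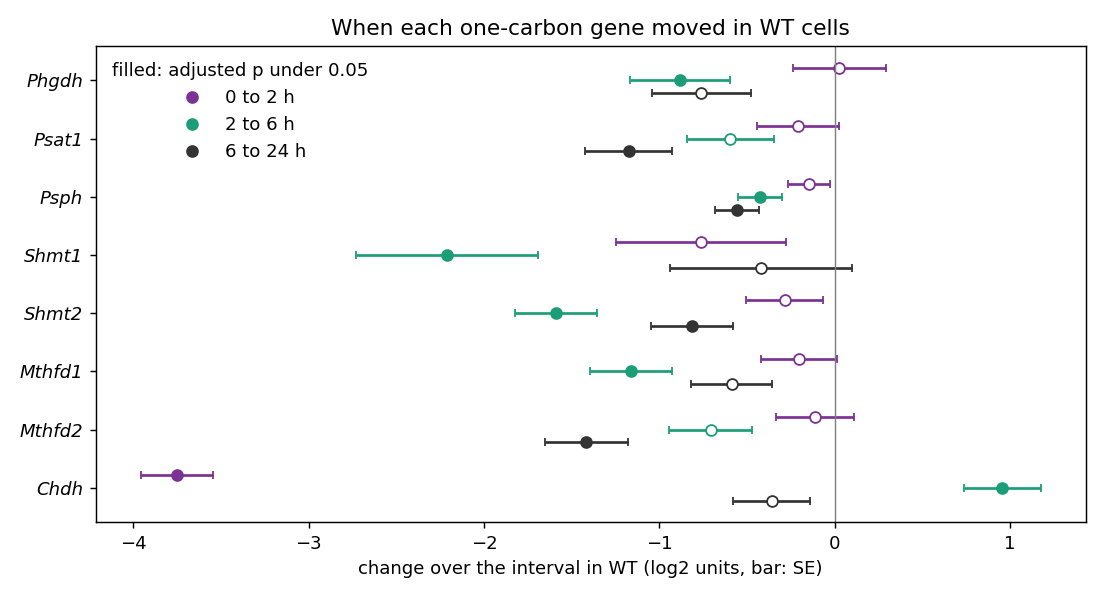
Change over each successive interval in WT cells (horizontal axis, log2 units, with SE bars) for each gene (vertical axis); filled circles passed at adjusted p under 0.05 in limma. Chdh made its fall before 2 h, and the brightest probe sets of Shmt1, Shmt2 and Mthfd1 had their most negative change between 2 and 6 h. Those of Mthfd2 and Psat1 had it between 6 and 24 h. Within arrays 1 to 14 alone the larger fall of Mthfd2 and Psat1 was between 2 and 6 h. The intervals were not tested against each other.

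Kin- cells at each time were compared with untreated Kin- cells to see whether the enzymes responded without PKA activity. None of the 8 genes was called in limma at 2, 6 or 24 h in either direction, and 0 of 8 had an unadjusted p under 0.05. The background was the same: 0% of all probe sets were called at any of the 3 times, and 2.16%, 1.9% and 2.17% had an unadjusted p under 0.05. Under the alternative fits the count of called members stayed at 0 in each.

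Chdh had 10.33, 10.07, 10.19 and 9.87 on the untreated arrays 5, 14, 40 and 44, and 10.26, 10.19 and 10.05 at 2 h, the time at which the WT arrays were near 6. Its change in Kin- at 2 h was 0.05 with a 95% interval from -0.38 to 0.48. Shmt2 had 13.02, 12.94, 12.94 and 13.10 when untreated and 12.90, 13.11 and 13.19 at 24 h, a change of 0.07 with an interval from -0.39 to 0.53. Mthfd2 had 12.40, 12.57, 12.74 and 12.94 when untreated and 12.45, 12.90 and 12.89 at 24 h. For Shmt1 the interval at 24 h was wide, from -1.14 to 0.89 around -0.13, so a smaller change could not have been seen in this fit. The fit shares 1 spread over the 8 groups, and at 24 h the SD of Shmt1 was 1.39 in WT and 0.30 in Kin-. The interval of Kin- therefore reflects the scatter of WT as well as that of Kin-. The groups overlapped except for Psph at 24 h, where the lowest array was at 12.65 and the highest untreated one at 12.62. The share of all probe sets without overlap in Kin- is not given here. Over all 8 genes and 3 times the changes in Kin- ran from -0.13 for Shmt1 at 24 h to 0.20 for Chdh at 24 h.

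**Figure D3:**
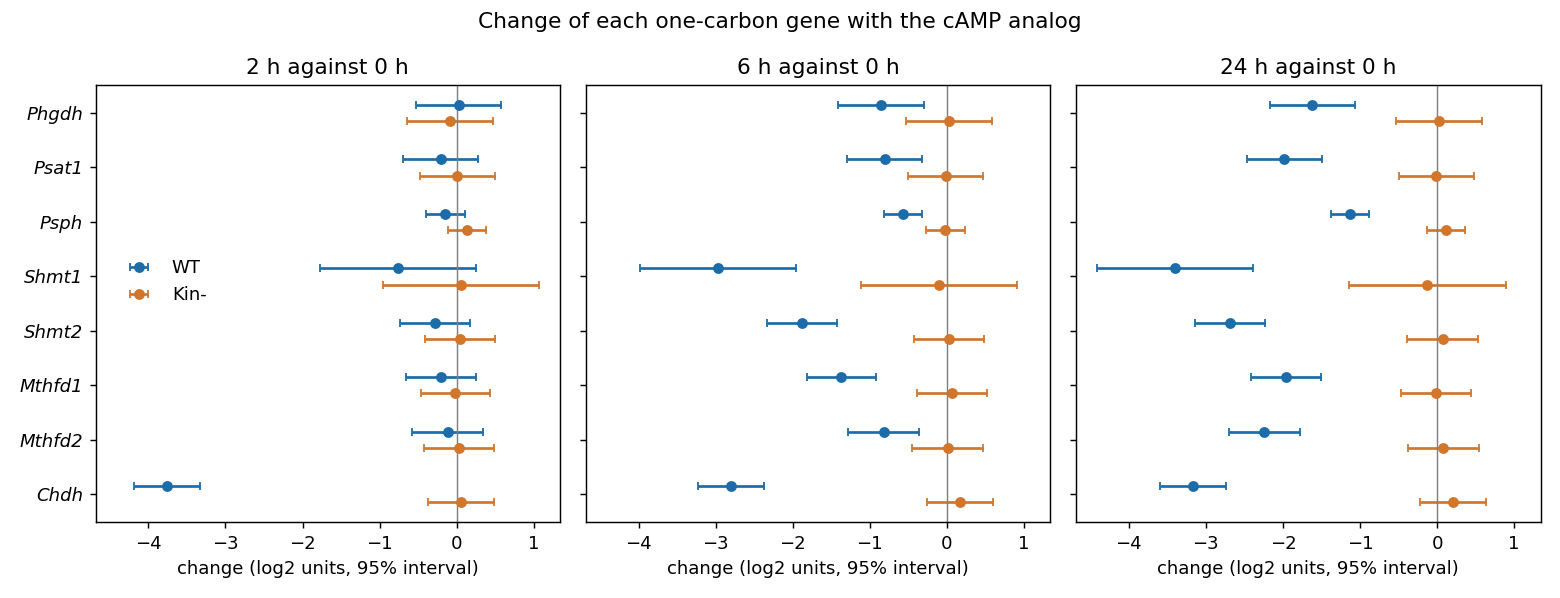
Change from the untreated cells of the same line (horizontal axis, log2 units, with 95% intervals from limma) at 2, 6 and 24 h for each gene (vertical axis), WT in blue and Kin- in orange. At 24 h the 8 WT intervals lie below 0 and the 8 Kin- intervals span 0.

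The difference between the responses of the lines was tested itself, as the Kin- change minus the WT change. At 2 h it was called higher for 1 of 8 genes, at 6 h for 5 and at 24 h for 8, where 3.41%, 5.73% and 11.3% of all probe sets were. Chdh differed by 3.81 ± 0.29 at 2 h (adjusted p = 4.11e-08). The brightest probe set of Shmt1 was not called at 2 h (0.82, adjusted p = 0.635). Its probe sets 1425178_s_at (1.47, adjusted p = 0.0212) and 1425177_at (0.79, adjusted p = 0.0105) were called higher. At 6 h the differences that passed were 2.96 for Chdh, 2.87 for Shmt1, 1.90 for Shmt2, 1.43 for Mthfd1 and 0.55 for Psph (adjusted p = 0.0384). Those of Phgdh, Psat1 and Mthfd2 at 6 h were 0.88, 0.79 and 0.83 and had not passed (adjusted p = 0.172, 0.158 and 0.105). With the replicate block Mthfd2 passed (0.84, adjusted p = 0.0328), and with array weights, or with only the 4 groups of the comparison in the fit, all 3 passed. The Psph call at 6 h was lost on leaving out any of 10 arrays, with adjusted p from 0.0554 to 0.133. At 24 h the differences ran from 1.24 for Psph (adjusted p = 1.2e-05) to 3.36 for Chdh (adjusted p = 5.48e-08).

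Untreated Kin- cells were compared with untreated WT cells to see whether the lines differed before the analog was given. Mthfd2 and Psph were called higher in Kin-, 2 of 8 genes, where 1.58% of all probe sets were, and 0 were called lower, where 1.42% were. Mthfd2 was higher by 1.03 ± 0.20 (adjusted p = 0.00542), at 12.67 ± 0.23 (SD, n = 4) against 11.64 ± 0.20 (SD, n = 4). Psph was higher by 0.54 ± 0.11 (adjusted p = 0.00713), at 12.56 ± 0.07 (SD, n = 4) against 12.03 ± 0.16 (SD, n = 4). Psat1 had a difference of 0.62 ± 0.22 (adjusted p = 0.158), Shmt2 of 0.59 ± 0.20 (adjusted p = 0.147) and Phgdh of 0.38 ± 0.25 (adjusted p = 0.694). In the brightest probe sets of these 5 genes every untreated Kin- array was above every untreated WT array, as in 3.68% of all probe sets. The lines overlapped in 1454607_s_at of Psat1 and in 1454714_x_at of Phgdh. The second probe set of Mthfd2, 1419253_at, was not called (0.96, adjusted p = 0.0553). Of Shmt2, 1434204_x_at was called higher in Kin- (0.58, adjusted p = 0.011). Shmt1, Mthfd1 and Chdh had differences of -0.11, 0.00 and 0.07, and their groups overlapped. With array weights Psat1 (adjusted p = 0.00771) and Shmt2 (adjusted p = 0.0132) passed too, which makes 4 of 8. In arrays 16 to 47 alone Psph was lost (adjusted p = 0.0885) and Psat1 passed (adjusted p = 0.021).

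Set in order by group mean, Mthfd2 was lowest in WT at 24 h (9.40 ± 0.58, SD, n = 3), then in WT at 6 h (10.82 ± 0.24), 2 h (11.52 ± 0.17) and 0 h (11.64 ± 0.20, n = 4), and highest in the 4 Kin- groups (12.67 to 12.75). The WT groups at 2 and 0 h overlapped, and so did the Kin- groups. Chdh was lowest in WT at 2 h (6.29 ± 0.32), followed by WT at 24 h (6.88 ± 0.56), which overlapped both 2 h and 6 h (7.24 ± 0.41), while 2 and 6 h did not overlap. Its untreated WT level (10.04 ± 0.10, n = 4) and its 4 Kin- levels (10.11 to 10.31) formed the upper group.

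Other genes of the pathway were counted in lists, each gene by its brightest probe set. In WT at 24 h 15.6% of all probe sets were called lower and 14.4% higher. Of 18 genes of the folate cycle and folate transport 10 were measured, and 3 were lower and 0 higher in WT at 24 h, with a median change of -0.13. They were Slc19a1, the reduced folate carrier, which fell by 1.75, Tyms, thymidylate synthase, by 1.44, and Fpgs, which adds glutamates that keep folates in cells, which fell by 1.08. Slc19a1 was already lower at 2 h, from 9.21 ± 0.13 (SD, n = 4) to 8.17 ± 0.16 (SD, n = 3; adjusted p = 0.0077). Of the 4 glycine cleavage genes 3 were measured, with 2 lower and 0 higher. Of 6 genes of purine synthesis 4 were measured and 4 were lower. Ppat, the first committed enzyme, fell by 2.34, Gart, which uses formyl folate, by 2.11 and Adsl by 1.33.

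Lists farther from the folate cycle went both ways at 24 h. In the methionine cycle and transsulfuration 9 of 11 genes were measured, 3 were lower and 2 higher. Cth, the last enzyme of transsulfuration, fell by 3.29 from a widely spread untreated level of 6.84 ± 1.92 (SD, n = 4), and Ahcy, which clears S-adenosylhomocysteine, fell by 1.26. In the choline, betaine and sarcosine list, to which Chdh would belong, 13 of 13 were measured with 3 lower and 3 higher, and 0 changed by at least 1 log2 unit. Among 11 measured serine users and carriers 4 were lower and 4 higher. The transporter gene Slc1a5 fell by 1.73, while Sptlc1, a subunit of the enzyme that puts serine into sphingolipids, rose by 1.87 and the mitochondrial carrier gene Sfxn3 by 1.09. In Kin- 0 genes of these lists passed in limma at 24 h.

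Transcription factors known to act on these genes were given by rule. Myc, a driver of growth metabolism, stood at 10.49 ± 0.45 (SD, n = 4) in untreated WT and at 8.04 ± 0.27 (SD, n = 3) at 2 h, and fell by 2.46, and at 24 h it fell by 2.12 from the untreated level (adjusted p = 1.4e-05). Atf4, the activator of amino acid synthesis genes, had a change of -0.27 at 2 h (adjusted p = 0.362) and -0.39 at 6 h (adjusted p = 0.139), and fell by 0.99 at 24 h (adjusted p = 9.3e-05). It was 0.63 higher in untreated Kin- than in untreated WT (adjusted p = 0.0314). Nfe2l2, a regulator of redox genes, fell by 0.49, 0.59 and 0.46 at 2, 6 and 24 h. Whether these factors had a part in the falls of the enzymes was not tested.

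**Figure D4:**
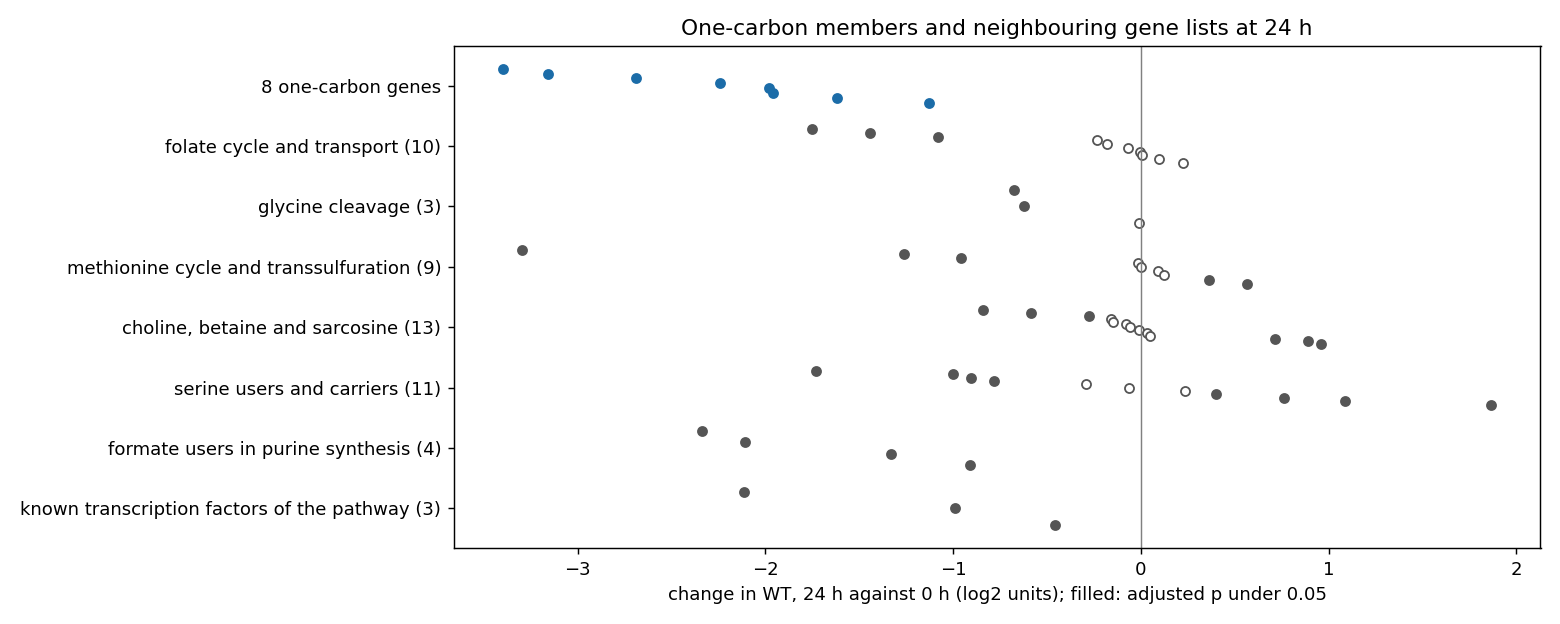
Change in WT at 24 h against 0 h (horizontal axis, log2 units) of the 8 genes in blue and of the measured genes of each neighbouring list in grey, with the number measured in brackets; filled circles passed at adjusted p under 0.05 in limma. The 8 genes and the 4 purine synthesis genes lie below 0, and the choline and serine user lists lie on both sides.

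The genes whose levels ran most like each enzyme over the 26 arrays were named by Pearson's r among 2764 genes whose group means spanned at least 1 log2 unit. The 26 arrays share the treatment and the difference between the lines, so r describes these libraries and has no test. For Mthfd2 they were Asns (r = 0.99), Atf5 (r = 0.98) and Cars (r = 0.98). For Psat1 they were Cars, Asns and Atf5 (r = 0.97 to 0.98), and for Psph Atf5, Asns and Bcat1 (r = 0.98 each). Phgdh went with Cad, Ppat and Uck2 (r = 0.96 each). Shmt2 went with Trim37, Fkbp4 and Pno1 (r = 0.98 to 0.99), Shmt1 with Gar1, Ebna1bp2 and Ung (r = 0.98 each), and Mthfd1 with Dnph1, Mnd1 and Nop10 (r = 0.97 to 0.98). Chdh had none of these neighbours: its nearest genes were Rev1 (r = 0.97), Rad1 (r = 0.96) and Mmachc (r = 0.96).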

How the data were processed

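The authors deposited 1 processed score per probe set and array, in a single table; how these deposited scores were made, and their scale, is not given in the sources used here. They ran from 0.375 to 267 with column medians from 29.11 to 30.59, and were analysed after taking the square root, as if log2 intensities. Groups came from the labels' titles, and arrays are named by the numbers there. Probe sets were named from the platform annotation, of which 20380 have 1 symbol, 691 several and 1555 none. A model with 1 mean per group was fitted to all 22626 probe sets with limma 3.58.1 (lmFit, eBayes) in R 4.3.3. It had no covariate and used Benjamini-Hochberg adjustment. SE and intervals are from this fit, in which each probe set has 1 spread for all 8 groups. Where WT at 24 h was more scattered than the other groups, as for Phgdh, its SE may be too small and that of Kin- too large. The fit was tested on simulated data for 24 h against 0 h in WT. Of 100 probe sets changed by 1 log2 unit 85% were recovered, and of 100 changed by 2 log2 units 98% were. Of the unchanged probe sets 8 were called. The simulated noise was normal and independent between arrays, with the same SD in every group. The real arrays differed by array set and scattered more in WT at 24 h for genes such as Phgdh, so real recovery may be lower. Precision is limited by the small number of arrays. Pathway genes were named if they passed and changed by at least 1 log2 unit in WT at 24 h, at most 4 a list, with Atf4, Myc and Nfe2l2 always named. The members, lists and rules were chosen with earlier results of these data known. Alternatives covered the scale, normalization, dim probe sets, array weights, prior variance, array set, a block of consecutive arrays, the groups in the fit, probe sets and each array left out. Promoters come from RefSeq (GRCm38.p6).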

Additional observations from a re-analysis of the deposited data

Results flagged for a closer look

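In untreated WT cells Phgdh was lowest on array 16, at 12.42, with the next array at 12.65, and this array's gap took 0.867 of the group's range; chance marks about 1 in 20 groups of 4 in this way, and 16 were looked at.

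For the brightest probe sets the response of the lines differed by the interaction term of limma in these cases, given as the Kin- change minus the WT change. At 2 h Chdh differed by 3.81. At 6 h Psph differed by 0.55, Shmt1 by 2.87, Shmt2 by 1.90, Mthfd1 by 1.43 and Chdh by 2.96. At 24 h the differences were 1.64 for Phgdh, 1.97 for Psat1, 1.24 for Psph, 3.27 for Shmt1, 2.76 for Shmt2, 1.95 for Mthfd1, 2.32 for Mthfd2 and 3.36 for Chdh. All are higher in Kin-, where no change of these genes was called.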

How the results depend on the processing

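No called change of a member turned its sign under any alternative: of 1248 changes recomputed under other settings 1170 kept their side of the threshold, 42 lost the call and 36 gained it, and with 1 array left out 799 of 832 kept it, 31 lost and 2 gained it. Of 1092 changes that passed in neither fit, 99 had another sign. For 6 and 24 h against 0 h in WT 309 of 320 kept their call. The lowest and highest counts of members called with 1 array left out were 1 and 1 lower for WT at 2 h, 6 and 8 at 6 h, 8 and 8 at 24 h, 2 and 4 lower with 1 and 1 higher for 6 against 2 h, 3 and 6 for 24 against 6 h, 2 and 2 for untreated Kin- against WT, and 1 and 1, 4 and 5, and 8 and 8 for the difference of responses at 2, 6 and 24 h; in Kin- they were 0 and 0. In arrays 1 to 14 alone, with a single treated array per group, 5 members were lower at 6 h, 7 at 24 h, 0 lower and 0 higher for 6 against 2 h, 0 lower for 24 against 6 h, 0 higher in untreated Kin-, and 0, 0 and 3 higher for the difference of responses at 2, 6 and 24 h. With only the groups of the comparison in the fit, 3 were lower and 0 higher for 6 against 2 h, 1 lower for 24 against 6 h, 4 higher in untreated Kin- and 8 higher for the difference at 6 h. For 6 against 2 h log2 of the deposited value gave 3 lower and quantile normalization 3. Array weights gave 7 lower for 6 against 2 h, 4 higher in untreated Kin- and 8 for the difference at 6 h. The mean over probe sets gave 2 lower at 2 h. The replicate block of consecutive arrays (correlation 0.305) gave 6 lower for 6 against 2 h, 6 lower for 24 against 6 h, 6 higher for the difference at 6 h, and otherwise the reported counts. The cause of these shifts was not tested.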

Other observations

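Mtrr and Chka were picked after their values were seen, because like Chdh they were lower at 2 h. Mtrr, which keeps methionine synthase active, went from 8.17 ± 0.32 (SD, n = 4) in untreated WT to 6.30 ± 0.64 (SD, n = 3) at 2 h, 6.91 ± 0.29 at 6 h and 7.21 ± 0.36 at 24 h. It fell by 1.87 at 2 h and by 0.96 at 24 h. Chka, a kinase that commits choline to phosphatidylcholine, fell by 1.17 at 2 h (adjusted p = 5.01e-05) and had a change of -0.08 at 24 h (adjusted p = 0.938). Ahcyl2 was 0.92 higher in untreated Kin- than in untreated WT (adjusted p = 0.000257), and Cth 3.33 higher (adjusted p = 0.0168).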
